A study of Mus musculus with 14 samples.

Results

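The Hox genes of the 4 mouse clusters, HoxA, HoxB, HoxC and HoxD, were examined in CUT&Tag peak lists for pSMAD1/5/9, SMAD4 and H3K27ac from muscle stem cells (MuSCs). In all, 38 Hox genes were looked up among 21603 protein-coding genes of chromosomes 1 to 19 and X, of which 10 lay in HoxA, 10 in HoxB, 9 in HoxC and 9 in HoxD. A peak belonged to a gene when it overlapped, by at least 1 bp, the canonical GENCODE transcript on GRCm39 with 2 kb added on both sides. Peaks between the genes were described along each cluster, from its outermost members with the same 2 kb.

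The MuSCs carried the reporter C57BL/6N(Tg(Pax7-EGFP)Tajb) and came from muscles of the breast, the back and both pairs of limbs, pooled from females 9 weeks old. They were cultured, sorted for GFP and cultured again, then kept for 6 h without serum in 200 ng/mL BMPR1A-Fc, which both groups received. Cells then received 100 ng/mL BMP6 for 1 h, or the vehicle, 4 mM HCl with 0.1% BSA, as the control. Each antibody and condition had 2 biological replicates of 100000 cells per library, which the authors combined into 1 list of reproducible peaks. Because the muscles were pooled, Hox marks that belong to different body positions cannot be told apart, and neither can a mark in some of the cells and a weaker mark in all of them.

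Hox genes encode homeodomain transcription factors. They lie in each cluster in the order in which they are used along the body axis, with low paralog numbers at the anterior end and high ones at the posterior end, and muscle stem cells of the adult are known to keep part of the code of their origin. In BMP signaling, the ligand activates receptors that phosphorylate SMAD1, SMAD5 and SMAD9, which enter the nucleus with SMAD4 and bind DNA. H3K27ac is an acetylation of histone H3 found at active promoters and enhancers, and broad stretches of it are known at genes of cell identity.

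The sequences at the SMAD peaks of BMP6-stimulated cells are shown first, because they show where the SMAD antibodies gave peaks in the clusters. They are the plus strand of GRCm39 around each summit, in lower case, with GGAGCC or GGCGCC (the SMAD site of BMP-responsive elements) and GTCT (the core SMAD box) in capitals on either strand. In the 3 peaks at Hox genes, the summit lay in the 5′ untranslated part of the first exon, and 21 bases are given.
Hoxa9, pSMAD1/5/9, chr6:52203148-52203168: tgtaacaacttggtggcacca
Hoxa9, pSMAD1/5/9, chr6:52204019-52204039: acccttgctccacagggaagg
Hoxc10, pSMAD1/5/9, chr15:102875210-102875230: tcccccccccttcccggatgg
The fourth pSMAD1/5/9 peak and the strongest SMAD4 peak of each cluster with one lay in no exon of a canonical transcript, and 50 bases on either side of the summit are given.
Between Hoxc8 and Hoxc6, pSMAD1/5/9, chr15:102910463-102910563: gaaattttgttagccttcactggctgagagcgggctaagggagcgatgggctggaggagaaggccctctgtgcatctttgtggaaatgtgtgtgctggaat
Between Hoxa7 and Hoxa9, SMAD4, chr6:52199055-52199155: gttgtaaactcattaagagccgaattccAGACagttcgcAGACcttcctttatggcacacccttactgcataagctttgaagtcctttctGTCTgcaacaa
Between Hoxc8 and Hoxc6, SMAD4, chr15:102908402-102908502: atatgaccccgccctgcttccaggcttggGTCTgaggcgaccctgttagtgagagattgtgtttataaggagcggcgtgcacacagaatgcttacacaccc
The SMAD4 window near Hoxa9 held 3 matches of GTCT and that between Hoxc8 and Hoxc6 held 1. The windows differ in length, so matches are compared only over the equal windows of 200 bp given with the motif counts.

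H3K27ac was broad in HoxA and HoxC, limited to the anterior part of HoxB and all but absent from HoxD. In BMP6-stimulated cells, 21 of the 38 genes had an H3K27ac peak, beside 64.8% of all protein-coding genes, and in control cells 22 of 38 had one, beside 62.9%. HoxA held 9 of these in either condition, HoxB 4, HoxC 8, and HoxD none after BMP6 and 1 in the control. The TSS itself lay inside a peak for 18 genes after BMP6 (background 51.8%) and for 19 in the control (background 49.9%). The same counts were found when the peak intervals of either replicate column were used alone.

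**Figure D1:**
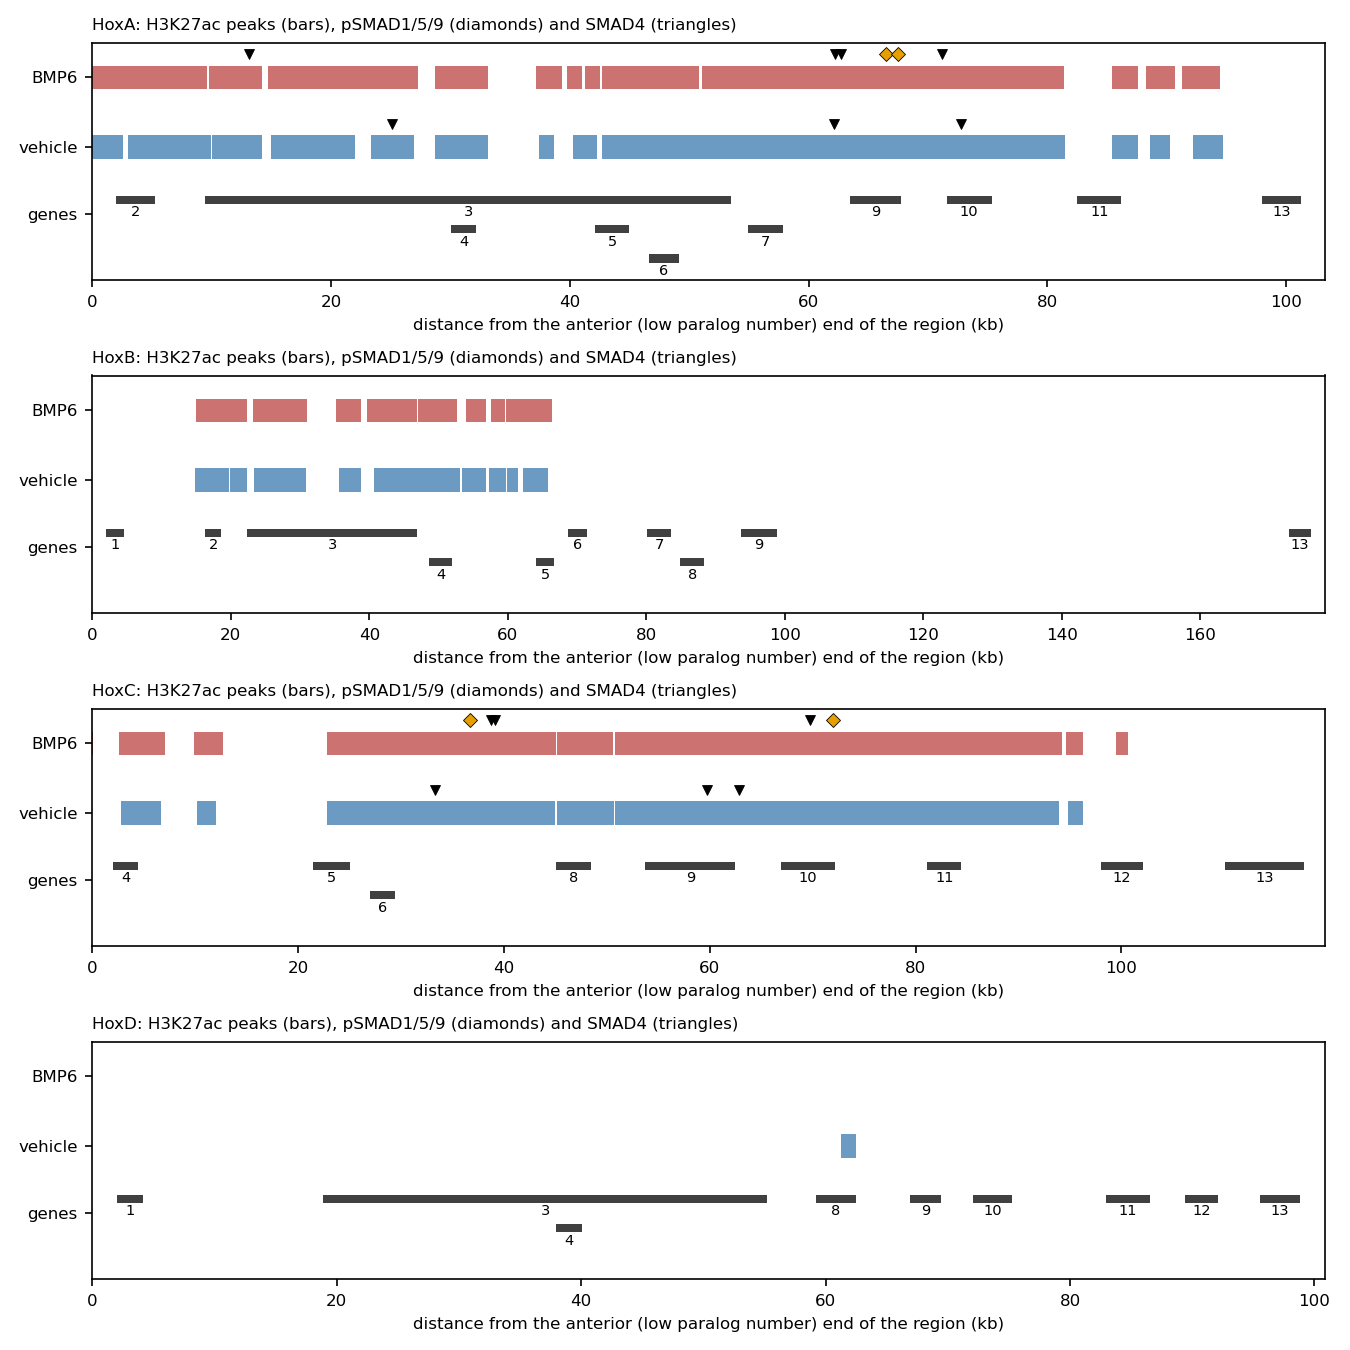
Map of the 4 clusters, each drawn from its anterior end, with distance in kb on the horizontal axis. Bars are H3K27ac peaks, clipped to the region shown, diamonds pSMAD1/5/9 peaks and triangles SMAD4 peaks of BMP6-stimulated (upper track) and control cells (middle track), and dark bars with paralog numbers are the canonical transcripts. H3K27ac fills most of HoxA and HoxC, the anterior part of HoxB, and 1 short stretch of HoxD in the control alone.

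Of the 103.2 kb of HoxA, H3K27ac peaks covered 79.4% after BMP6 and 74.8% in the control. By the intervals of the first and the second replicate column, the share was 78.9% and 75.0% after BMP6 and 72.9% and 73.1% in the control, so the columns of a condition lay within a few points of each other. Of the 119.7 kb of HoxC, 67.9% and 65.2% were covered, and of the 178.0 kb of HoxB 24.2% and 23.2%. The HoxB span includes a long stretch from the end of Hoxb13, at 96088273, to the start of Hoxb9, at 96162150. It holds no Hox gene and no H3K27ac peak, which lowers the share and the density of HoxB, and the share without it was not computed. HoxD, of 100.8 kb, had no covered base after BMP6 and 1.19% in the control. Over chromosomes 1 to 19 and X, the same lists covered 5.97% and 4.94%. In the 100 kb beyond each end of the 4 spans, between 0 and 11.5% was covered.

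HoxC held a domain of exceptional width. A single peak from 102853101 to 102896500 on chromosome 15 in BMP6-stimulated cells, 43.4 kb wide, took in the TSSs of Hoxc9, Hoxc10 and Hoxc11. It was the 6th widest of 78050 H3K27ac peaks. In control cells the corresponding peak ran from 102853301 to 102896500 and was, with 43.2 kb, the widest of 67790. By signal it ranked 2882 after BMP6 and 505 in the control. The ranks in the 2 replicate columns were 1212 and 5557 after BMP6 and 3120 and 109 in the control, so the columns of one condition differed by more than the conditions did. A second peak, 22.3 kb wide after BMP6 and 22.2 kb in the control, covered the TSSs of Hoxc5 and Hoxc6 and ranked 1413 and 840. Hoxc8, between both, lay in a peak of 5.46 kb and 5.50 kb, and Hoxc4, at the anterior end, in one of 4.48 kb and 3.90 kb.

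By consensus signal, HoxA held the strongest H3K27ac peak of the 4 clusters in each condition. In control cells a domain of 38.8 kb, from 52179301 to 52218100 on chromosome 6, took in the TSSs of Hoxa3, Hoxa5, Hoxa6, Hoxa7, Hoxa9 and Hoxa10. It ranked 75 by signal and 4th by width. In the replicate columns it ranked 41 and 366, and in the second of them the HoxC domain, at 109, was the stronger, so the 2 control columns gave opposite orders. After BMP6 the same stretch was listed as a peak of 8.12 kb with the TSSs of Hoxa5 and Hoxa6, ranked 3061, and a peak of 30.3 kb with the other 4 TSSs, ranked 141 by signal and 17th by width. The 2 peaks were 280 bp apart, and the wider one measured 30240 bp and 30100 bp in the replicate columns. Starts of H3K27ac peaks in the first replicate column fell on a grid of 140 bp after BMP6 and 100 bp in the control. A gap of 280 bp is of the order of this grid, so the split was not read as a change. Hoxa2, known for patterning the hindbrain and the branchial arches, and Hoxa4 had the TSS in peaks ranked 1119 and 9917 after BMP6 and 2862 and 13980 in the control. Hoxa11, known in the developing limb, was covered over 39.7% and 41.7% of its region, with the TSS inside peaks of 2.17 kb and 2.20 kb. The canonical Hoxa3 transcript, of 44.1 kb, spans Hoxa4, Hoxa5 and Hoxa6, so its 10 peaks after BMP6 and 8 in the control are in part those of its neighbours.

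In HoxB the mark was limited to the anterior part. Hoxb2, Hoxb3, Hoxb4 and Hoxb5 had peaks in both conditions, and Hoxb1, Hoxb6, Hoxb7, Hoxb8, Hoxb9 and Hoxb13 had none. By consensus signal, the strongest peak of the cluster lay over the Hoxb2 TSS, with rank 2296 after BMP6 (7.28 kb) and 4001 in the control (4.80 kb). The replicate columns were far apart, with ranks of 9383 and 1209 after BMP6 and 12853 and 1009 in the control. In the first control column a peak of 7.50 kb within Hoxb3, at rank 1624, was stronger. Hoxb4, which is known to expand blood stem cells, was covered over 80.1% of its region after BMP6 and 95.9% in the control. By replicate column the share was 77.2% and 79.1% after BMP6 and 87.8% and 95.9% in the control. The Hoxb3 TSS was inside a peak of 12.4 kb in control cells, while after BMP6 it fell in a gap of 210 bp between peaks of 5.60 kb and 7.21 kb. Hoxb3 alone sets the 18 genes with a marked TSS after BMP6 apart from the 19 in the control. The gap is again of the order of the grid of peak starts, so it was not read as a change. Hoxb5 was covered over 64.2% and 54.5%, with its TSS just outside the peak. The boundary of the mark thus ran within the Hoxb5 region in every replicate column, where 64.2% and 63.2% were covered after BMP6 and 54.5% in both columns of the control.

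None of the 9 HoxD genes, Hoxd1, Hoxd3, Hoxd4, Hoxd8, Hoxd9, Hoxd10, Hoxd11, Hoxd12 and Hoxd13, had an H3K27ac peak after BMP6. In control cells Hoxd8 had 1 peak of 1.20 kb, from 74535001 to 74536200 on chromosome 2, ranked 41366 of 67790, with 53.0% and 73.0% as its positions in the list by replicate column. Hoxd8 was thereby the single Hox gene with H3K27ac in one condition alone, where the background is 0.986% of genes for the control alone and 2.83% for BMP6 alone, and 0 of 38 genes were of the latter kind.

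**Figure D2:**
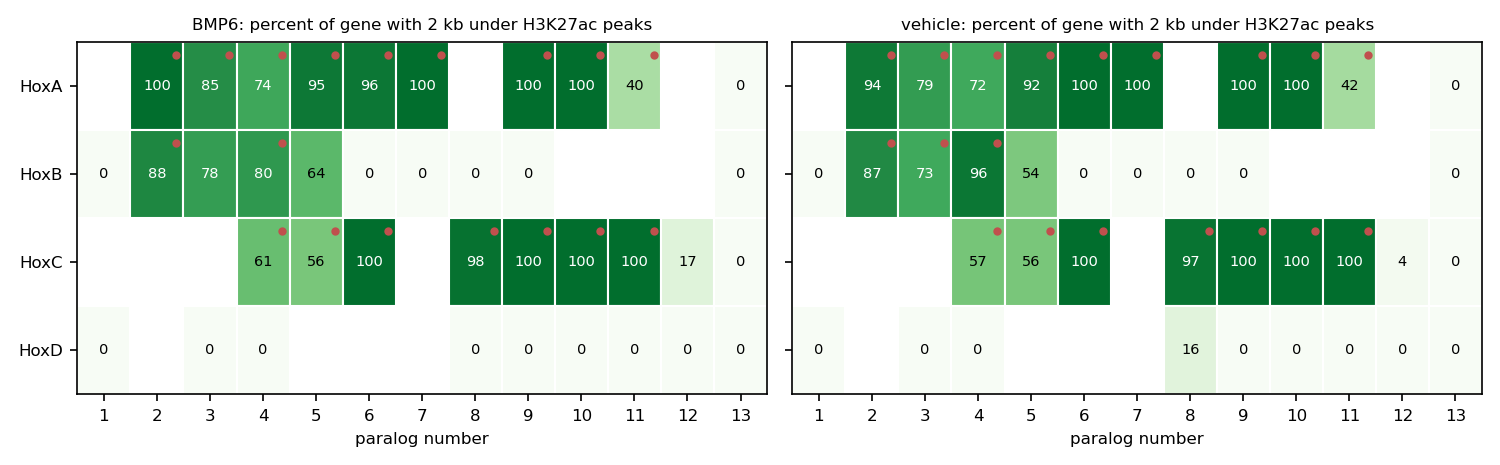
Percent of each gene, with 2 kb on both sides, that lay under H3K27ac peaks, by cluster (rows) and paralog number (columns), after BMP6 (left) and in the control (right). Darker green is a higher share, a dot marks a TSS inside a peak, and cells without a number hold no gene described here. Values of 100 stand at Hoxa7, Hoxa9, Hoxa10, Hoxc6, Hoxc9, Hoxc10 and Hoxc11 in both conditions. Hoxb1 and Hoxd1, the genes of paralog 1 described here, and all genes of paralog 13 are at 0.

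Across the clusters, position along the paralog series and H3K27ac were related in a way that differed by cluster. The median covered share was 78.0% after BMP6 and 72.7% in the control for the 7 anterior genes (paralogs 1 to 3), 64.2% and 57.0% for the 15 central genes (4 to 8), and 0 in both for the 16 posterior genes (9 to 13). For gene bodies alone, the order of anterior and central genes turned after BMP6, with 75.1% against 86.1%. These medians hide that posterior genes of HoxA and HoxC were fully covered, at Hoxa9, Hoxa10, Hoxc9, Hoxc10 and Hoxc11, while their paralogs Hoxb9, Hoxd9, Hoxd10 and Hoxd11 were at 0. The most posterior genes were unmarked in all clusters, as Hoxa13, Hoxb13, Hoxc13 and Hoxd13 had no peak, and Hoxc12 was reached by peaks over 17.4% and 3.57% of its region without the TSS. Neighbouring genes share peaks, so these counts are not counts of independent events, and no test was made.

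The unmarked Hox promoters were, by median, no poorer in CpG than the marked ones. In the 1000 bp around the TSS, the median ratio of observed to expected CpG was 0.631 for the 18 genes with the TSS in H3K27ac in both conditions and 0.712 for the 16 genes without a peak in either, beside 0.663 for all 38 and 0.579 for all protein-coding genes. The number of CpGs in that window ranged from 23 to 125 in the marked genes, with a median of 49.5, and from 31 to 134 in the unmarked ones, with a median of 54.5.

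The noncoding genes of the clusters were read on the same map of peaks. The TSS lay inside H3K27ac in both conditions for 9 of 10 lncRNAs in HoxA, 4 of 10 in HoxB, 4 of 5 in HoxC and 0 of 8 in HoxD. Several of these TSSs lie in the peaks that hold Hox TSSs, so they are not independent counts. The share over all lncRNAs was not counted. Hotair, the HoxC lncRNA that runs antisense beside Hoxc11, was inside the domain of 43.4 kb, whereas Haglr in HoxD had no peak. The clusters also hold 7 microRNA genes, of which 6 matched mature sequences of RefSeq (GRCm38.p6). The 5p arms of the miR-196 and miR-10 families, known to repress Hox transcripts among other targets, are shown with the seed, bases 2 to 8, in capitals because copies with one seed lie in marked and in unmarked clusters.
miR-196a-5p (HoxB and HoxC): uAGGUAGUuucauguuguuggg
miR-196b-5p (HoxA): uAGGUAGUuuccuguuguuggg
miR-10a-5p (HoxB): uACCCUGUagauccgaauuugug
miR-10b-5p (HoxD): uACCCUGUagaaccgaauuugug
Mir196b, between Hoxa9 and Hoxa10, and Mir196a-2, between Hoxc10 and Hoxc9, lay inside the wide domains in both conditions, and Mir196a-1 in HoxB, which gives the same mature sequence as Mir196a-2, lay in no peak. Mir10b in HoxD lay in none either. Mir10a, from 96207991 to 96208100 on chromosome 11, was touched by the control peak that begins at 96208001 and by none after BMP6, where the nearest peak begins at 96208421. That control peak began at 96208201 in the first replicate column and at 96208001 in the second, so only the second touched Mir10a. Mir615, within Hoxc5, was inside the peak of 22.3 kb.

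At Hox genes, 3 pSMAD1/5/9 peaks were listed after BMP6 and none in the control. After BMP6, 2 of 38 genes had one (5.26%, Wilson 95% interval 1.46 to 17.3, counting error over genes only), beside 18.6% of all protein-coding genes. In control cells 0 of 38 had one, beside 3.23%. Hoxa9 and Hoxc10 thus appeared in the BMP6 list alone, beside a background of 15.7% for BMP6 alone and 0.315% for the control alone, which held 0 of 38. The BMP6 list was much longer, with 7339 peaks against 949, and when only its 949 strongest peaks were kept, 0 of 38 genes remained. Hox genes are short, with a median of 3.29 kb against 16.3 kb, which limits how many peaks a region can hold. Within 2 kb of the TSS, a measure free of gene length, the same 2 genes were found (background 12.1%) and 0 in the control (background 1.75%). Among genes with the TSS inside H3K27ac, 2 of 18 Hox genes had a pSMAD1/5/9 peak after BMP6, beside 31.5% of such genes, and 0 of 19 in the control, beside 5.79%. Per length of genome the order was the other way in HoxA and HoxC, which held 1.94 and 1.67 pSMAD1/5/9 peaks per 100 kb after BMP6, beside 0.279 over chromosomes 1 to 19 and X, while HoxB and HoxD held 0. This density rests on 2 peaks in each of HoxA and HoxC and is per length of genome, not of H3K27ac. H3K27ac covered 79.4% of HoxA and 67.9% of HoxC after BMP6, beside 5.97% of the chromosomes. Of the whole pSMAD1/5/9 list after BMP6, 98.2% overlapped H3K27ac. The part of H3K27ac in the density was not tested. Gene shares and density per length of genome thus gave different readings, and neither was tested.

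**Figure D3:**
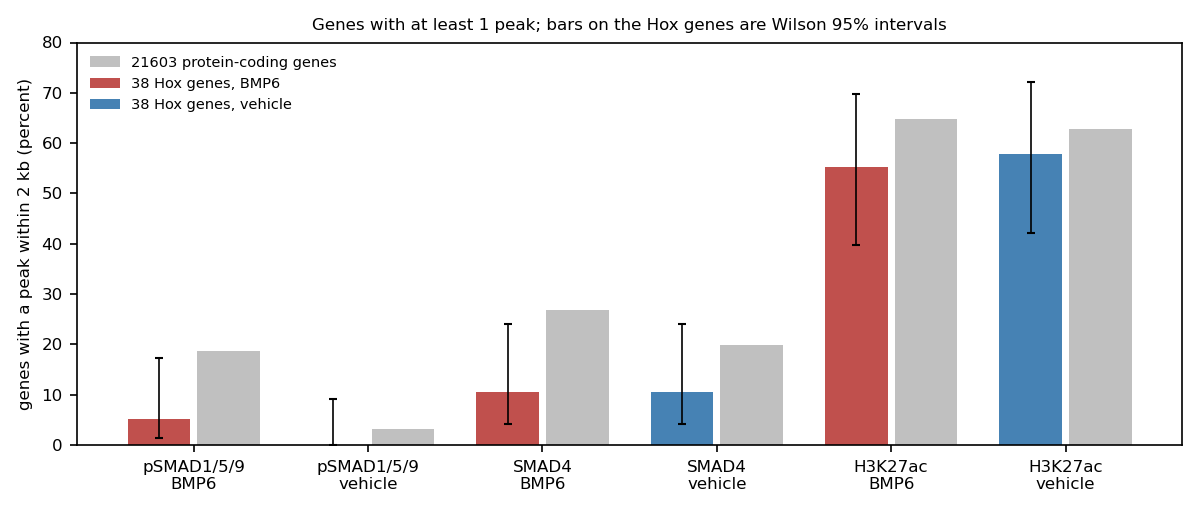
Percent of genes with at least 1 peak within 2 kb of the transcript, for each antibody and condition, in the 38 Hox genes (coloured bars, with Wilson 95% intervals) and in 21603 protein-coding genes (grey bars). After BMP6 the Hox share is 5.26% against 18.6% for pSMAD1/5/9 and 10.5% against 26.8% for SMAD4. In the control the grey bars, 3.23% and 19.9%, lie within the intervals, as do those of H3K27ac in both conditions. The intervals cover counting error over genes only. Neighbouring genes share peaks and are not independent, so the intervals are too narrow to serve as a test.

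Hoxa9, a posterior HOX factor known in limb patterning and in leukemia, had 2 of the 4 pSMAD1/5/9 peaks. The stronger one, from 52202866 to 52203294, had a signal of 10780 in the first and 7061 in the second replicate column and its summit 1192 bp downstream of the TSS. It ranked 4113 of 7339. The other, from 52203871 to 52204347, had signals of 7451 and 6278, a summit 321 bp from the TSS and rank 5527. At Hoxc10, which is known in the hindlimb, the peak from 102874921 to 102875721 covered the TSS, with its summit 86 bp inside the first exon. Its signals were 7179 and 8287, and it ranked 4878. The fourth peak, between Hoxc8 and Hoxc6 from 102910291 to 102910860, lay 7404 bp upstream of the Hoxc6 TSS, had signals of 5607 and 6294 and ranked 6275. By consensus signal, all 4 peaks were in the weaker part of their list, and 1 of 4, the stronger one at Hoxa9 with a −log10 IDR of 2.03, passed an IDR of 0.01, beside 50.1% of the whole list. HoxB and HoxD held no pSMAD1/5/9 peak in either condition. With 20 kb around each gene, the same peaks and those just outside were counted at several neighbours, and 13 genes of HoxA and HoxC had pSMAD1/5/9 after BMP6.

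SMAD4 was listed at 4 of 38 genes in each condition (10.5%, Wilson 95% interval 4.17 to 24.1). The background was 26.8% after BMP6 and 19.9% in the control. Hoxa3, Hoxa9 and Hoxa10 had a peak in both lists, Hoxc10 after BMP6 alone (background 10.5%) and Hoxc9 in the control alone (background 3.64%). Among genes with the TSS inside H3K27ac, this was 4 of 18 after BMP6, beside 44.6%, and 4 of 19 in the control, beside 34.3%. Within 2 kb of the TSS, no Hox gene had SMAD4 after BMP6 (background 18%) and Hoxc9 had it in the control (background 12.5%). The BMP6 list was the longer one, and when its strongest peaks were taken in the number of the control list, 1 gene, Hoxa9, had SMAD4 after BMP6 against 4 in the control, whereas at an IDR of 0.01 it was 1 against 0. Per 100 kb, HoxA and HoxC held 3.88 and 2.51 SMAD4 peaks after BMP6, beside 0.489 over chromosomes 1 to 19 and X, and 2.91 and 2.51 in the control, beside 0.326. These densities too are per length of genome, not of H3K27ac, and rest on few peaks.

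After BMP6, the strongest SMAD4 peaks of the clusters lay on the 3′ side of Hoxa9, towards Hoxa7. There, the peak from 52199038 to 52199664 had signals of 8349 and 3268 and ranked 5222 of 12860, and its neighbour from 52198675 to 52199004 had signals of 6273 and 2910 and ranked 6709. Both passed an IDR of 0.01. In control cells the peak from 52198477 to 52198920, with signals of 3114 and 2226, ranked 7641 of 8577. It overlapped the second of the BMP6 peaks and was the single SMAD4 peak of the clusters shared between conditions. Signals of different lists are on no stated common scale, and ranks in lists of 12860 and 8577 peaks do not measure a change either, so neither is read here as a change between conditions.

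In the control, the strongest SMAD4 peaks of the clusters by consensus signal were 2 at Hoxc9. The first, from 102884332 to 102884580, had its summit upstream of the TSS by 368 bp and ranked 7121, and the second, in an intron, ranked 7199. In the first replicate column they ranked 7948 and 7862, behind the Hoxa9 peak at 7530. At Hoxa10, the BMP6 peak ranked 10684 and lay beyond the 3′ end, while the control peak ranked 8444 and lay in an exon. The Hoxa3 peaks lay 40386 bp and 28369 bp from its canonical TSS, in an exon after BMP6 (rank 12532) and in an intron in the control (rank 8108). Hoxc10 had its BMP6 peak in the intron, 2297 bp from the TSS, at rank 12707. The peaks that belonged to no Hox gene all lay between Hoxc8 and Hoxc6, 2 after BMP6 and 1 in the control. No SMAD4 peak was listed in HoxB or HoxD.

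**Figure D4:**
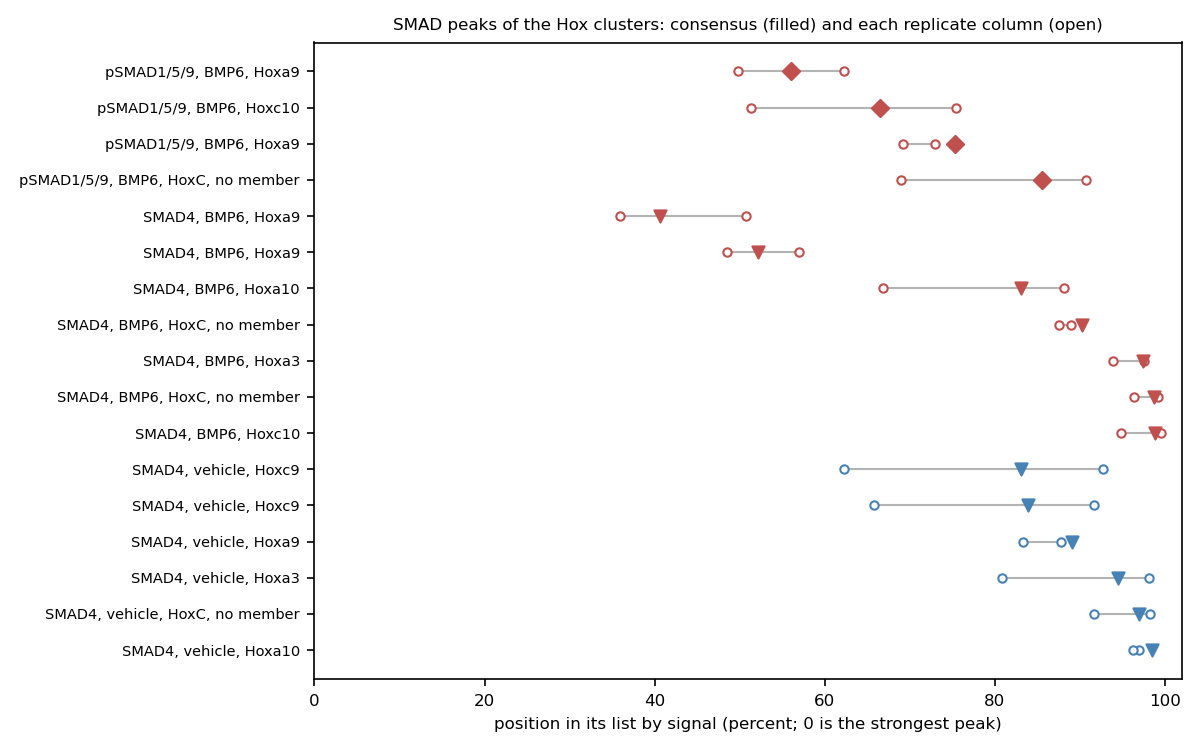
Position of each pSMAD1/5/9 and SMAD4 peak of the clusters in its own list by signal, where 0 is the strongest and 100 the weakest. Filled symbols are the consensus peak (diamonds pSMAD1/5/9, triangles SMAD4), open circles each of the 2 replicate columns, with BMP6 in red and the control in blue. One peak, SMAD4 at Hoxa9 after BMP6 at 40.6%, is in the stronger part of its list, and the control peaks lie between 83.0% and 98.4%.

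Peaks of the SMAD antibodies did not coincide in the clusters. Of 4 pSMAD1/5/9 peaks, 0 coincided with SMAD4 of the same condition, with a Wilson 95% interval up to 49.0%, while 73.2% of the whole pSMAD1/5/9 list did. All 4 were in the weaker part of their list, whereas the whole list includes its strongest peaks. The nearest SMAD4 peak of BMP6-stimulated cells was 1605 bp away between Hoxc8 and Hoxc6, 1647 bp at Hoxc10, and 3201 bp and 3336 bp at the peaks of Hoxa9. Of the 7 SMAD4 peaks after BMP6, 1 overlapped a control peak, beside 45.5% of the list, and of the 6 in the control 1 overlapped a BMP6 peak, beside 69.7%. For H3K27ac, 27 of 29 BMP6 peaks and 27 of 28 control peaks overlapped one of the other condition. The share of the whole lists was 72.0% and 86.8%. In the clusters their median width was 4480 bp and 3600 bp, beside 1470 bp and 1400 bp in the whole lists. The SMAD4 peaks of the clusters had medians of 330 bp and 315 bp. A wider peak meets the overlap rule of 1 bp more easily, so these shares are not compared between antibodies. The parts of peak width and of peak strength in them were not tested. All 17 SMAD peaks of the clusters, 4 pSMAD1/5/9 and 13 SMAD4, overlapped H3K27ac of their own condition, as did 95.7% to 99.6% of the whole SMAD lists. Libraries made with no primary antibody were not used here, so signal that does not depend on the antibody was not tested.

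In the 200 bp around the summits, each SMAD motif was counted beside its share of the whole list. GGAGCC or GGCGCC was held by 1 of 4 pSMAD1/5/9 peaks, the stronger one at Hoxa9, beside 30.2% of the list. It was held by 2 of 7 SMAD4 peaks after BMP6 and 3 of 6 in the control, beside 28.4% and 28.2%. GTCT was in 1 of 4, 5 of 7 and 5 of 6 peaks, beside 81.0%, 83.0% and 82.9%. CAGCTG, the E-box bound by MyoD, was in 0 of 4, 1 of 7 and 2 of 6, beside 31.1%, 29.1% and 32.7%. The SMAD palindrome GTCTAGAC and the AP-1 site, TGAGTCA or TGACTCA, were in none of the 17. TGATNNAT, the site of HOX with PBX, was in 1 SMAD4 peak after BMP6, between Hoxc8 and Hoxc6, beside 4.71%. Both strands were searched, a match of GTCTAGAC is also one of GTCT, and a match is not evidence of binding.

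The genes of partners of HOX proteins were looked up in the same way. The 8 cofactor genes looked up, Pbx2, Pbx3, Pbx4, Meis1, Meis2, Meis3, Pknox1 and Pknox2, all had H3K27ac in both conditions, beside 64.8% and 62.9% of all genes. Pbx3, Pknox1 and Pknox2 had pSMAD1/5/9 after BMP6, beside 18.6%, and of these Pknox2 also in the control, beside 3.23%. SMAD4 was listed at 4 of 8 after BMP6 and 4 of 8 in the control, beside 26.8% and 19.9%. Pknox2 and Pbx3 are much longer than the median gene, and the part of length in these counts was not tested. At Pknox2, the best pSMAD1/5/9 peak ranked 89 of 7339 and 104 of 949, and the best of its 7 and 8 SMAD4 peaks 39 and 79. Of the upstream regulators, Cdx1 had an H3K27ac peak and Cdx2 and Cdx4 had none, and Evx1 and Evx2, which neighbour HoxA and HoxD, had no peak of any antibody.

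The label of the cells was checked with H3K27ac within 2 kb of the TSS, which 55.5% of all protein-coding genes had after BMP6 and 53.4% in the control. Of 10 genes of muscle stem cells or myoblasts, 9 had it in both conditions, Pax7, Myf5 and Myod1 included, and Calcr did not. Of the markers of other cells, 1 of 5 endothelial, 1 of 5 fibro-adipogenic, 2 of 5 glial and 2 of 5 pericyte genes had it in both conditions, and of 5 haematopoietic genes 0 after BMP6 and 1 in the control. Pecam1, Ptprc and Pdgfra, which define endothelial, blood and fibro-adipogenic cells, had no peak near the TSS. The part of other cells in the Hox marks was not tested.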

How the data were processed

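CUT&Tag was made for pSMAD1/5/9, SMAD4 and H3K27ac in MuSCs with BMP6 or vehicle, and 12 of 14 libraries entered the 6 lists used. Per the methods, the authors drew the same number of reads for each antibody, mapped these with Bowtie2 2.5.4 on GRCm39, called peaks per replicate with JAMM and kept those with an IDR of at most 0.05. The deposited lists have 20 columns: a scaled IDR score, the signal, also a score, equal to the sum of both replicates, −log10 IDR as the authors' pipeline wrote it, and the peak of each replicate, in columns without a replicate number. No reads are in the lists, so the depth of each library cannot be read from them and no differential test was possible here. An absent peak means only that none passed the threshold. Per the methods, the authors tested differential binding from the reads with DiffBind, and that result was not used here.

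Positions were made 1-based. Genes were canonical transcripts of GENCODE M39. Overlap needed 1 bp. Shares have Wilson 95% intervals (scipy 1.17.1), which cover counting error only. Ranks were by signal within a list. Motifs were searched in 200 bp around summits with pysam 0.24.0, in Python 3.11.15. Sequences in untranslated exons were shortened to 21 bases, and the pSMAD1/5/9 window between Hoxc8 and Hoxc6 was chosen after its values were seen. Overlap, covered length and the matching of GTCT were tested on simulated data, and the other steps were not. Named were all Hox genes described here, with full values for those with pSMAD1/5/9, those with SMAD4 in 1 condition and the strongest peak of each cluster. An item of these lists is not reported here. The genes, lists and rules were chosen with earlier results of these data known. Alternatives covered the IDR threshold, the region, the overlap, list length, motif window and each replicate column.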

Additional observations from a re-analysis of the deposited data

How the results depend on the processing

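No read counts were available, so the limits are those of peak calling at IDR 0.05, and 168 of 253 values under other settings stayed within their tolerance, which was 1.5 times for counts, the Wilson interval for overlap shares and 1 SD of the replicate columns for covered shares and ranks. The cause of the others was not tested. The total of 168 was in part fixed in advance. The replicate columns that set the SD were also scored as alternatives, and a 0 that stayed 0 was scored as the same. The Wilson intervals of the SMAD overlap shares rest on few peaks and are wide. No paired analysis was possible because no test was made and the replicate columns carry no number. With an IDR of at most 0.01, pSMAD1/5/9 after BMP6 was at 1 gene with 1 peak in the clusters, the gene found after BMP6 alone, and SMAD4 at 1 gene with 2 peaks after BMP6 and at 0 genes with 0 peaks in the control, so that 0 genes had it in the control alone and 0% of the BMP6 peaks were shared. With regions of 5 kb, pSMAD1/5/9 was at 4 genes, all after BMP6 alone, SMAD4 in the control at 8, 3 of them in the control alone, and H3K27ac in the control alone at 2. With 20 kb, the region of the study, these were 13 genes for pSMAD1/5/9, again all after BMP6 alone, 15 for SMAD4 in each condition with 0 in either alone, and 4 with H3K27ac in the control alone. Neighbouring regions then overlap and count the same peaks. With gene bodies, SMAD4 after BMP6 was at 2 genes, and in the control alone at 2, and H3K27ac after BMP6 alone at 1. Within 2 kb of the TSS, SMAD4 was at 0 genes after BMP6, with 0 after BMP6 alone, and at 1 in the control, and H3K27ac after BMP6 alone at 1. With lists of equal length, pSMAD1/5/9 after BMP6 alone was at 0 genes, SMAD4 after BMP6 alone at 0 and in the control alone at 3. By the midpoint of the peak, which leaves out genes at the side of a wide domain, H3K27ac in the control was at 14 genes. All basic transcripts moved no count past its tolerance.

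With 20 kb added, the covered share was 61.6% and 57.5% in HoxA after BMP6 and in the control, 20.1% and 19.3% in HoxB, 53.6% and 51.2% in HoxC and 0.877% in HoxD in the control. The share of control H3K27ac peaks found after BMP6 was 82.1% with an overlap of 50% of both peaks. The median covered share of anterior genes was 75.1% and 68.5% for gene bodies and 94.8% and 95% near the TSS, and that of central genes 86.1% and 68.3%, and 75.2% and 92.0%, each after BMP6 and in the control, so the order of these 2 groups depended on the region, while posterior genes stayed at 0. For GGAGCC or GGCGCC, pSMAD1/5/9 peaks with a match were 0 in 100 bp, 2 in 400 bp and 2 in the whole peak, and SMAD4 peaks after BMP6 1, 6 and 4. For GTCT, pSMAD1/5/9 peaks were 0, 3 and 3, and in 100 bp SMAD4 peaks were 3 after BMP6 and 2 in the control. CAGCTG was in 1 whole pSMAD1/5/9 peak and, in 100 bp, in 1 SMAD4 peak of the control, and TGATNNAT in 0 SMAD4 peaks after BMP6 in 100 bp.

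With one replicate column left out, the TSS counts remained 18 and 19. Both columns belong to the peaks of the consensus list, so this is not a peak call from 1 replicate alone. The covered share ranged from 75.0% to 78.9% in HoxA, 23.6% to 23.8% in HoxB and 66.4% to 67.8% in HoxC after BMP6, and in the control from 72.9% to 73.1%, 22.5% to 22.6%, 64.3% to 64.9% and, in HoxD, 0.992% to 1.19%. The position of the strongest SMAD4 peak after BMP6 ranged from 93.9% to 97.5% at Hoxa3, 66.8% to 88.1% at Hoxa10 and 94.9% to 99.5% at Hoxc10, and in the control from 80.9% to 98.1% at Hoxa3, 83.3% to 87.8% at Hoxa9 and 96.3% to 96.9% at Hoxa10. That of the strongest H3K27ac peak ranged from 0.167% to 0.676% in HoxA, 1.55% to 12% in HoxB and 1.47% to 4.27% in HoxC after BMP6, and from 0.0605% to 0.540%, 1.49% to 19% and 0.161% to 4.60% in the control.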
